A study of Homo sapiens with 24 samples.

Results

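The 37 genes described here encode parts of the lysosome: 13 acid hydrolases, the sphingolipid activator precursor PSAP, 2 cholesterol exporters, 4 membrane proteins, 2 channels or transporters, 11 subunits of the vacuolar H+-ATPase (V-ATPase) and the autophagy receptor SQSTM1, together with TFEB, TFE3 and MITF, which control lysosomal genes. They were chosen as a list of symbols, and all 37 were matched among the 37247 gene ids of the deposited tables and were among the 14986 genes that passed the filter on low counts; the lowest count of any of them in a library was 150. RNA was sequenced from MDA-MB-231, a triple-negative breast cancer cell line, engineered for doxycycline-inducible overexpression of myocardin related transcription factor A (MRTF-A), a coactivator of the serum response factor SRF. The lines with MRTF-A carried a mutant labelled dSAP, a mutant labelled dSRF or the wild-type factor (WT), and each was set against a control line; the names dSAP and dSRF are not spelled out in the labels. Every line, control included, received 1 ug/ml doxycycline for 72 h in medium with 10% serum, and each was grown in 3D on matrigel, with 2% matrigel in the medium, and in 2D on plates. There were 3 libraries in each of the 8 groups. Nothing in the labels says whether replicates were separate cultures, so p-values measure the spread between these libraries, which may be technical.

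The lysosome is an acidic compartment in which hydrolases break down protein, glycogen, glycans and lipids delivered by endocytosis and autophagy. Its acidity is made by the V-ATPase, whose V1 part on the cytosolic side splits ATP and whose V0 part in the membrane carries protons. TFEB, TFE3 and MITF belong to the MiT/TFE family of basic helix-loop-helix factors, which bind a motif centred on CACGTG in the promoters of many lysosomal genes and are held in the cytosol by mTORC1 signalling when nutrients are plentiful. Cathepsins, especially cathepsin B and cathepsin D, have long been studied in breast cancer because tumour cells can secrete them.

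Promoter sequences of members that moved in these data are shown to place that motif beside the values. RefSeq windows (GRCh38.p14) from 250 bases before to 50 bases after the start were at hand for 27 of the 37 genes. The MiT/TFE palindrome TCACGTGA, searched on both strands and containing CACGTG, was in the windows of 5 of these 27 members, LAMP1, CTSA, GAA, MCOLN1 and ATP6V0D1, and in those of 1.18% of all 27305 genes. The shorter CACGTG was in 7 of the 27, CTSD and CD63 besides those 5, and in 8.77% of all genes. The form TCATGTGA was in 2 of the 27, CD63 and TPP1, and in 1.24% of all genes. The CArG box bound by SRF was in 1 of the 27, ATP6V1E1, and in 1.6% of all genes. These matches are descriptions of the letters in the windows. Capitals mark the motif in the stretches below, which run 5′ to 3′ on the gene's strand. The windows of GAA and TPP1 hold 2 copies each before the start, and only the first is marked. The second copy lies beyond the GAA stretch and is cut off at the end of the TPP1 stretch. LAMP1 (chr13:113297170-113297238, plus strand), GAA (chr17:80101493-80101522, plus strand) and CTSA (chr20:45891298-45891327, plus strand) were lower in every MRTF-A line. MCOLN1 (chr19:7522542-7522623, plus strand) was higher in the dSRF line, and ATP6V0D1 (chr16:67481199-67481228, minus strand) in the dSRF and dSAP lines in both cultures and in WT in 2D. CTSD (chr11:1763957-1763986, minus strand) holds the shorter motif, TPP1 (chr11:6619425-6619454, minus strand) the TCATGTGA form and ATP6V1E1 (chr22:17629013-17629042, minus strand) the CArG box.
LAMP1: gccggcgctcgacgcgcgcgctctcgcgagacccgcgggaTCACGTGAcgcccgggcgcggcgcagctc
GAA: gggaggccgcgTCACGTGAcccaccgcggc
CTSA: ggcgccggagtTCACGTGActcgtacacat
MCOLN1: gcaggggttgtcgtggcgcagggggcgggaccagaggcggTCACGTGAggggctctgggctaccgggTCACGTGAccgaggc
ATP6V0D1: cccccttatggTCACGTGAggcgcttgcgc
CTSD: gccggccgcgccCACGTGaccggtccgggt
TPP1: gaatatagagcTCATGTGAtccgtcacatg
ATP6V1E1: gcgaaaaattCCAATAAAGGcacattctcc

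Total counts ran between 13968773 and 23023300 per library. The genotype field of the labels differs from the titles for 16 of the 24 libraries; groups follow the titles, and MRTFA was at 664 to 10716 CPM (counts scaled to library size) in the 18 libraries titled as overexpressing and at 28.8 to 39.1 CPM in the 6 control libraries. That level checks overexpression against control only and does not tell WT, dSAP and dSRF apart. The lowest of the 18, replicate 1 of 3D dSRF at 664 CPM, stands apart: the other 2 libraries of its group had 4840 and 4857 CPM, and its mean correlation over log2 CPM was 0.948 with its own group, against 0.965 or more for every other library. With 2D dSRF the mean correlation was 0.966 for replicate 1, above that with its own group, 0.966 for replicate 2 and 0.968 for replicate 3. The own-group values of replicates 2 and 3, 0.965 and 0.967, are means that include replicate 1. The mean of replicate 1 was lower than both, so replicates 2 and 3 correlated better with each other than with it. Their correlation with each other therefore lay above both means. Counts and the main values for 3D dSRF are therefore given with and without replicate 1. Of 6 markers of MDA-MB-231, all were present in all 24 libraries, with VIM at 1331 TPM (transcript abundance corrected for length) or more. Of 6 luminal markers, ESR1 was at 0 in 20 libraries and PGR in 22, while the list summed to 122 to 294 TPM in 3D dSRF, 190 to 214 TPM in 2D dSRF and 38.1 to 87.5 TPM in all other groups and EPCAM reached 264 TPM. Of 4 endothelial markers the sum was 7.06 to 12.2 TPM in dSRF and 0.436 to 2.52 TPM elsewhere. Of 4 osteoclast markers it was 3.68 to 9.85 TPM in dSRF and 1.16 to 3.04 TPM elsewhere, with DCSTAMP at 0 in all 24 libraries. Of 6 fibroblast markers it was 53.7 to 95.9 TPM in dSAP and WT, 17.9 to 118 TPM in dSRF and 27.7 to 37.3 TPM in control, with DCN at 0 in 22 libraries. Macrophage markers summed to 5.93 to 25.3 TPM in 3D dSRF and 6.72 to 20.1 TPM elsewhere, with PTPRC at 0 in 21 libraries but CD14 at 3.41 to 18.2 TPM and CSF1R at 1.52 to 19.4 TPM. Melanocyte markers summed to 0.727 to 4.36 TPM, with TYR at 0 in 24 libraries and PMEL at 0.727 to 3.01 TPM. Summed TPM of 80 ribosomal protein genes ran from 60555 to 82397 in the MRTF-A lines and from 89539 to 101691 in control. The part of these shifts in the results was not tested.

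Each line was first set against control in the same culture. Cathepsin D, CTSA, GAA, GUSB and the membrane protein LAMP1 were lower than control in every line and in both cultures, and 7 or more of the 11 V-ATPase genes were higher than control in every line in 2D. Beta-galactosidase and CD63 were called higher in dSRF and not in dSAP or WT, and acid ceramidase and ATP13A2 were called higher in dSRF than in control and than in WT. A gene counts as called where its edgeR quasi-likelihood p, adjusted by Benjamini-Hochberg across the 14986 genes tested, is under 0.05. In 3D dSAP, 9 of 37 members were called higher and 12 lower (56.8% of the 37), where 29.6% of all genes were called, 16.5% higher and 13.1% lower. In 3D dSRF, 21 were called higher and 8 lower (78.4% of the 37), where 66.4% of all genes were called, 35.1% higher and 31.3% lower. Without replicate 1 of that group the counts were 23 higher and 11 lower, where 72.8% of all genes were called, 37.2% higher and 35.6% lower. In 3D WT, 9 were called higher and 16 lower (67.6% of the 37), where 35.0% of all genes were called, 18.0% higher and 17.0% lower. In 2D dSAP, 10 were called higher and 11 lower (56.8% of the 37), where 32.9% of all genes were called, 17.5% higher and 15.4% lower. In 2D dSRF, 21 were called higher and 9 lower (81.1% of the 37), where 66.0% of all genes were called, 34.5% higher and 31.5% lower. In 2D WT, 16 were called higher and 11 lower (73% of the 37), where 39.3% of all genes were called, 20.1% higher and 19.2% lower. The spread is shared by all groups in the fit, so leaving out replicate 1 of 3D dSRF also raised the counts elsewhere, to 25 members in 3D dSAP (44.0% of all genes), 31 in 3D WT (48.1%), 26 in 2D dSAP (47.1%), 33 in 2D dSRF (72.0%) and 31 in 2D WT (51.9%). A gene given below as not called is so with all libraries in the fit. The median log2 fold change of the 37 was -0.06 in 3D dSAP, 0.37 in 3D dSRF, -0.13 in 3D WT, -0.07 in 2D dSAP, 0.27 in 2D dSRF and 0.12 in 2D WT, and that of all genes lay between -0.024 and 0.023. The 3 lines share their control libraries, so the same direction in several lines is not independent.

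**Figure D1:**
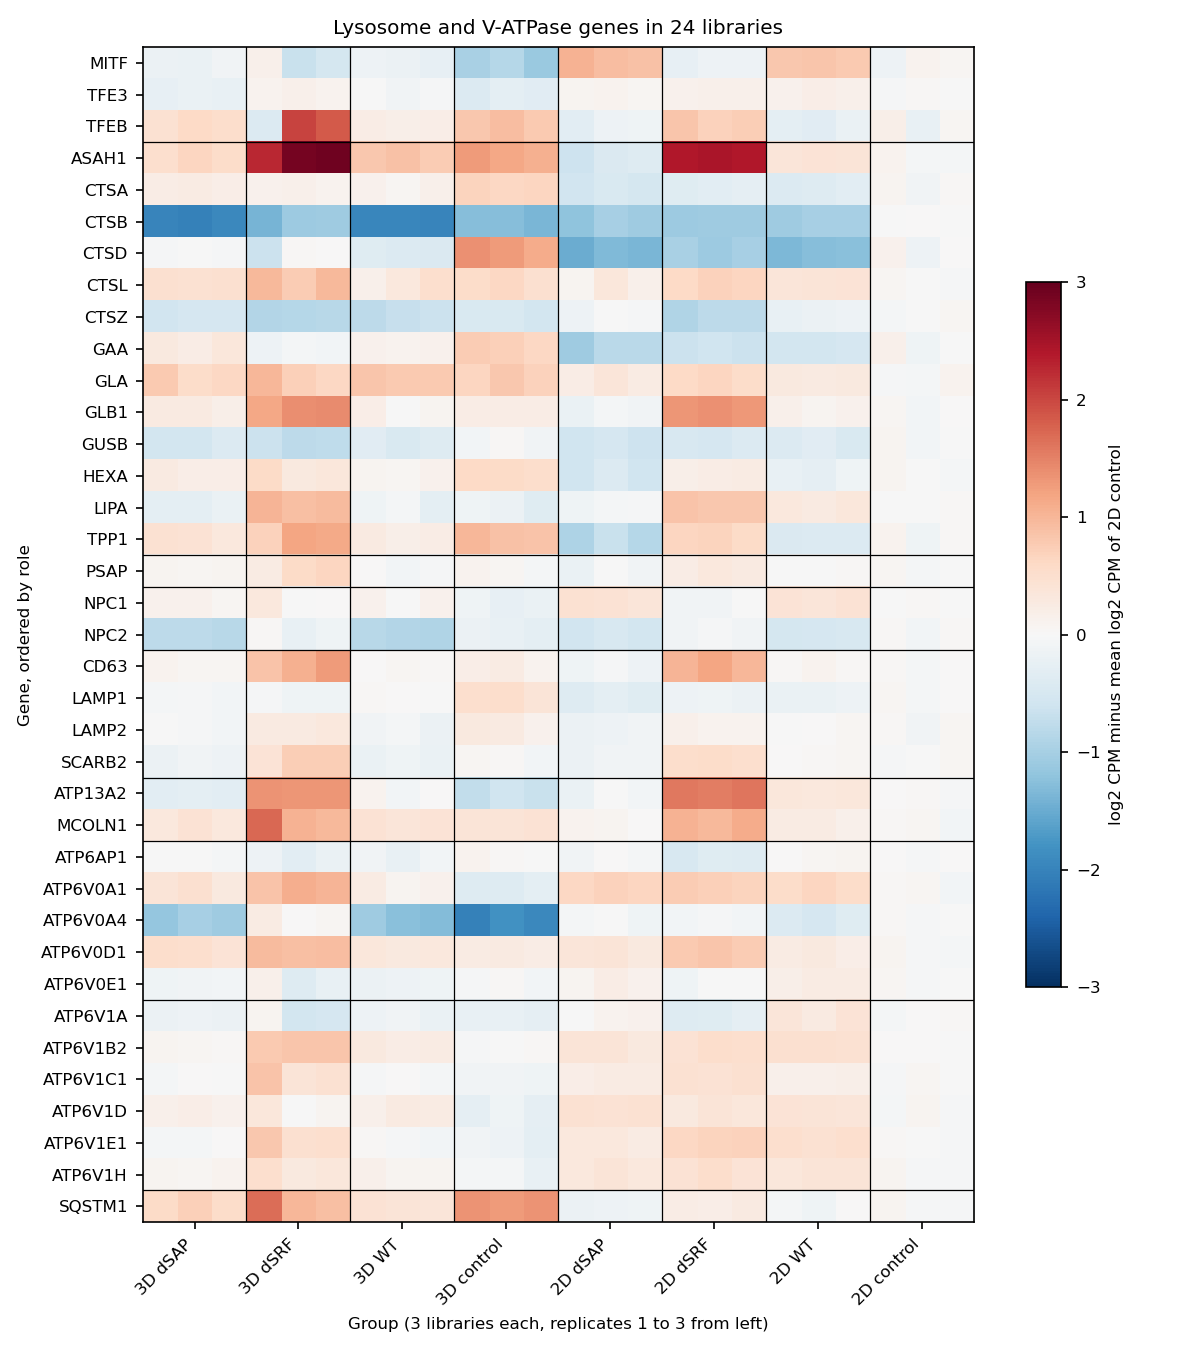
Each row is a gene, grouped by role, and each column a library; colour gives log2 CPM minus the mean log2 CPM of the 3 2D control libraries, from blue (lower) to red (higher). ASAH1 and ATP13A2 are red in the dSRF columns, CTSB is blue in every group other than 2D control, and ATP6V0A4 is darkest blue in 3D control.

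**Figure D2:**
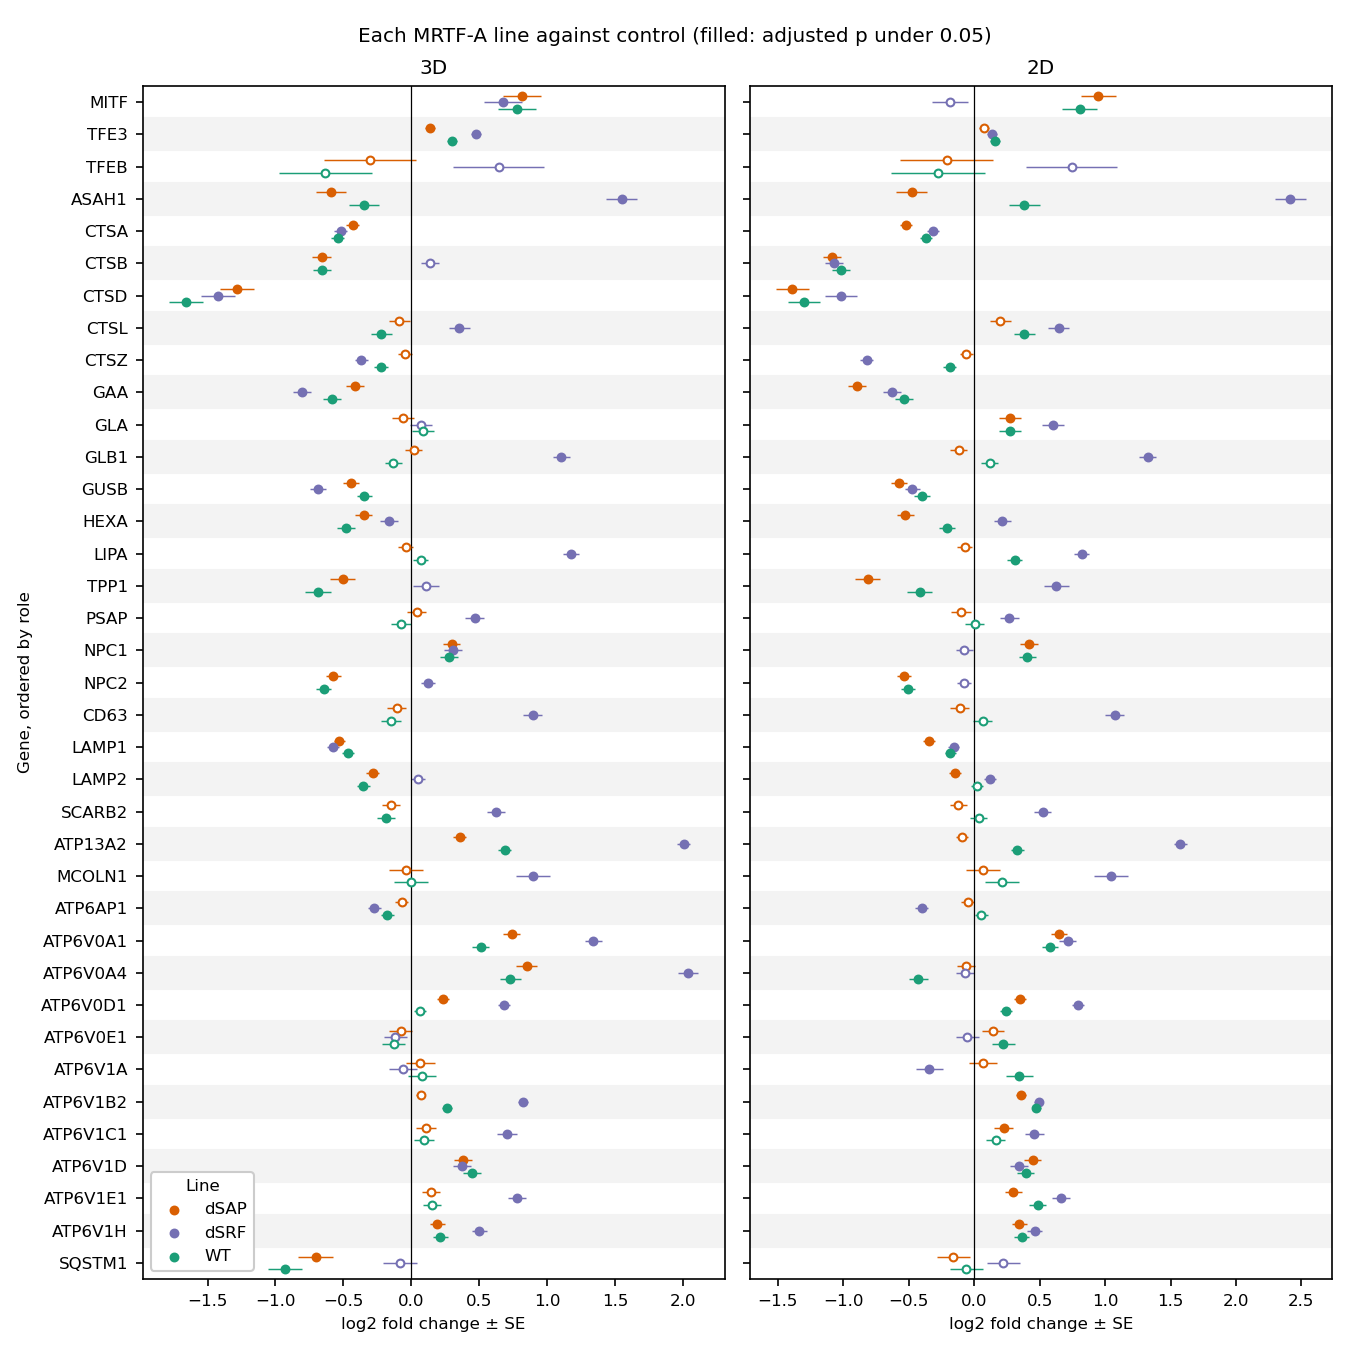
Log2 fold change of each line over control in the same culture, 3D on the left and 2D on the right, with standard errors; filled points have an adjusted p under 0.05. CTSD lies left of 0 in all 6 comparisons, and ATP6V0A1 and ATP6V1D lie right of 0 in all 6.

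Per length, the 37 genes ran in 2D control from 12.7 ± 3.22 TPM for TFEB to 1136 ± 21.8 TPM for CTSB, and in 3D control from 6.92 ± 0.49 TPM for ATP6V0A4 to 2604 ± 204 TPM for CTSD (SD, n = 3). The exons of 7 members overlap another gene on the same strand (CTSD, GLB1, HEXA, NPC2, MCOLN1, TPP1 and ATP6V0A1) and those of 16 a gene on the opposite strand, and 5 have named pseudogenes (GUSB with 11, CTSL with 5, ATP6V0E1 with 4, ATP6V1E1 and SQSTM1 with 1 each), so reads of these genes could have been split.

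Of the MiT/TFE regulators, MITF, the family member best known from melanocytes, was higher in the lines with WT and dSAP. In 3D it had 30.3, 29.6 and 31.6 CPM in dSAP, 37.7, 21.5 and 23.6 CPM in dSRF, 30.5, 30.1 and 28.6 CPM in WT and 17.5, 18.9 and 15.8 CPM in control. In 2D it had 69.9, 64.3 and 63.0 CPM in dSAP, 28.7, 30.5 and 30.6 CPM in dSRF, 59.8, 60.4 and 58.6 CPM in WT and 30.5, 36.4 and 35.3 CPM in control. All dSAP and WT libraries lay above all control libraries of their culture, and 2D dSRF overlapped 2D control. The log2 fold change over control was 0.81 ± 0.14 in 3D dSAP and 0.78 ± 0.14 in 3D WT (adjusted p = 0.000152 and 0.000186), and 0.95 ± 0.13 in 2D dSAP and 0.81 ± 0.13 in 2D WT (adjusted p = 1.63e-05 and 6.84e-05, edgeR). In 3D dSRF it was 0.67 ± 0.14 (adjusted p = 0.000273) and 0.38 without replicate 1, which held the highest level of its group. In 2D dSRF it was -0.19 ± 0.14 (adjusted p = 0.24). TFE3, the broadly expressed family member, changed by less: its log2 fold change was 0.13 ± 0.04, 0.47 ± 0.04 and 0.30 ± 0.04 in 3D dSAP, dSRF and WT, all called, with 186, 190.4 and 186 CPM in 3D dSRF against 129, 139.6 and 136 CPM in 3D control and a value of 0.48 there without replicate 1. In 2D it was 0.08 ± 0.04, 0.14 ± 0.04 and 0.16 ± 0.04, with dSRF and WT called and dSAP not.

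TFEB, the family member best known for driving the lysosomal gene network, differed most between the 3D dSRF libraries. In 3D it had 18.2, 20.1 and 18.9 CPM in dSAP, 9.88, 53.8 and 47.1 CPM in dSRF, 15.4, 14.9 and 15.2 CPM in WT and 23.1, 25.0 and 22.6 CPM in control. In 2D it had 10.6, 11.8 and 12.1 CPM in dSAP, 23.6, 21.5 and 21.9 CPM in dSRF, 10.9, 10.5 and 11.6 CPM in WT and 14.8, 11.2 and 13.8 CPM in control. Replicate 1 of 3D dSRF was below every control library, and the other 2 libraries of that group were the highest of all 24. With all libraries in the fit TFEB was called in none of the 6 comparisons with control: the log2 fold change was -0.30 ± 0.34, 0.64 ± 0.33 and -0.63 ± 0.34 in 3D dSAP, dSRF and WT (adjusted p = 0.552, 0.0969 and 0.168), and -0.21 ± 0.35, 0.74 ± 0.35 and -0.28 ± 0.36 in 2D (adjusted p = 0.697, 0.0669 and 0.58, edgeR). Without replicate 1 of 3D dSRF, TFEB was called in 5 of the 6. It was then -0.30, 1.10 and -0.63 in 3D dSAP, dSRF and WT (adjusted p = 0.0037, 1.47e-11 and 4.95e-07), and 0.74 and -0.28 in 2D dSRF and WT (adjusted p = 2.04e-08 and 0.0112). The calls of TFEB against control therefore rest on leaving that library out.

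**Figure D3:**
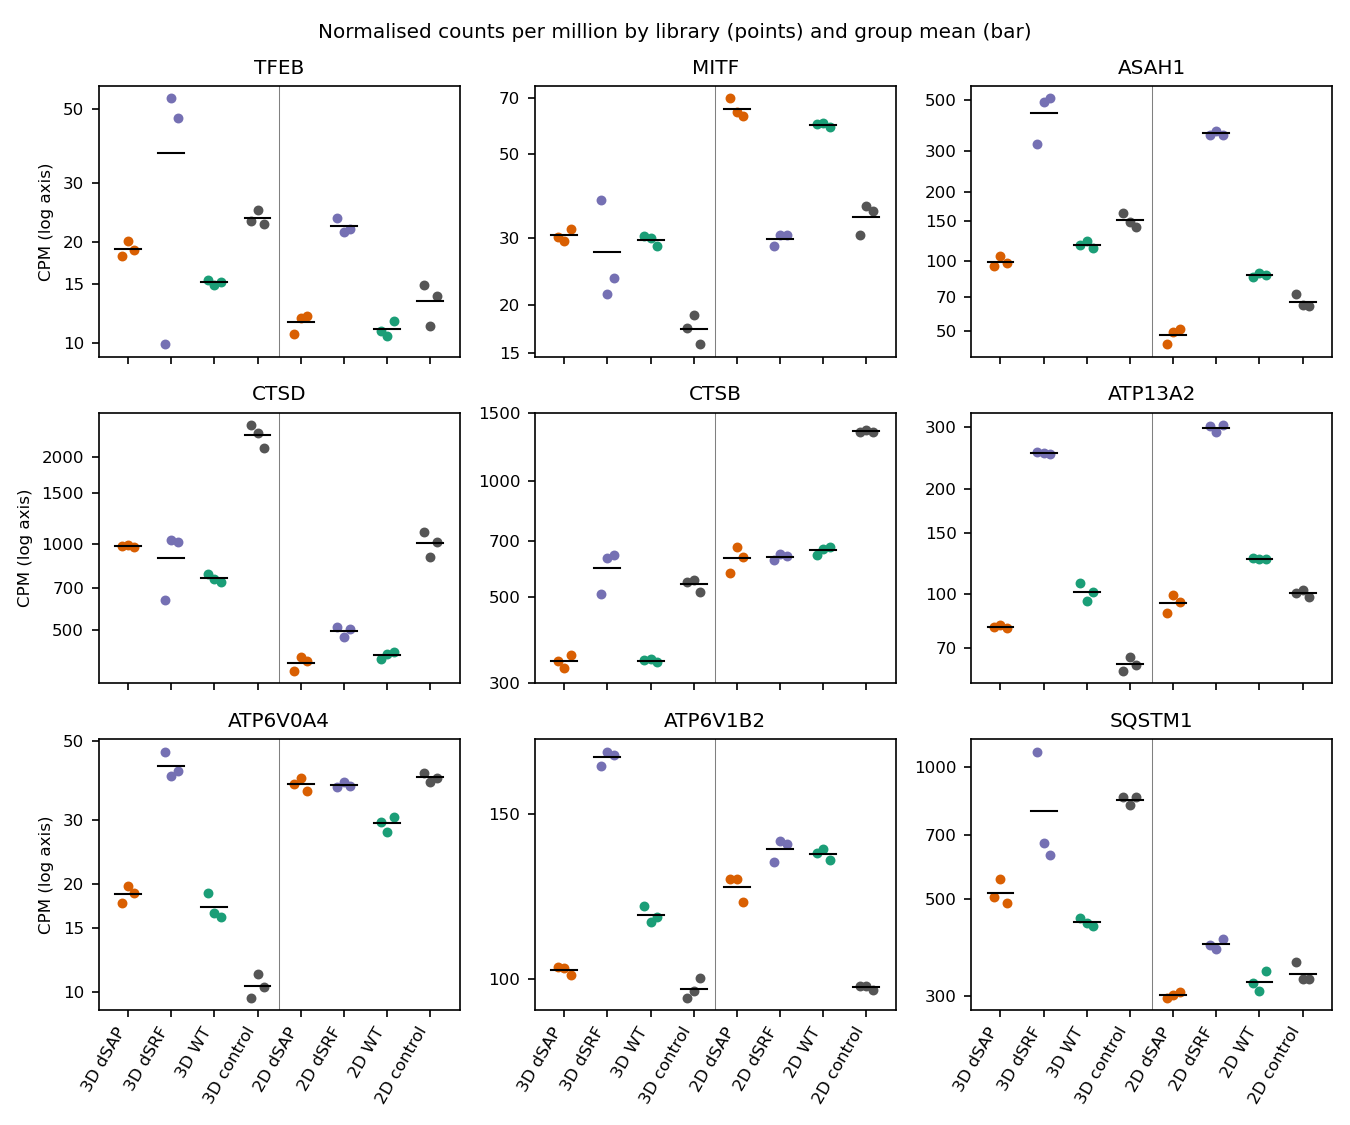
CPM of 9 members in every library (points, log axis) with group means (bars); 3D groups stand left of the grey line and 2D groups right. In 3D dSRF the TFEB points spread from 9.88 to 53.8 CPM, and the ASAH1 and ATP13A2 points of the dSRF groups lie above those of every other group.

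Except in 2D dSRF, where CTSB fell more, the largest fall from control among the hydrolases was in CTSD, cathepsin D, an aspartic protease. It had 982, 993 and 977 CPM in 3D dSAP, 637, 1025 and 1016 CPM in 3D dSRF, 782, 754 and 736 CPM in 3D WT and 2593, 2427 and 2162 CPM in 3D control. In 2D it had 359.7, 403 and 388 CPM in dSAP, 514, 474 and 504 CPM in dSRF, 396, 413 and 417 CPM in WT and 1097, 901 and 1017 CPM in control. No library of a line reached a control library of its culture. CTSD differed from control on the log2 scale by -1.28 ± 0.12 in 3D dSAP, -1.42 ± 0.12 in 3D dSRF (-1.23 without replicate 1) and -1.66 ± 0.12 in 3D WT (adjusted p = 1.22e-07, 4.23e-09 and 1.73e-09). In 2D it was -1.39 ± 0.12, -1.02 ± 0.12 and -1.30 ± 0.12 in dSAP, dSRF and WT (adjusted p = 4.23e-08, 4.93e-07 and 5.5e-08, edgeR). The RNA is bulk, so fewer cells expressing a gene and less RNA of it per cell cannot be told apart.

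CTSB, cathepsin B, a cysteine protease and the most abundant member per length in 2D control, was lower in every line in 2D but in 3D only in dSAP and WT. In 2D it had 579.6, 675 and 637 CPM in dSAP, 626, 646 and 640.4 CPM in dSRF, 643, 668 and 677 CPM in WT and 1337, 1352 and 1338 CPM in control, so that the lines stood at similar levels, all well under control. In 2D the log2 fold change was -1.09 ± 0.07, -1.07 ± 0.07 and -1.02 ± 0.07 (adjusted p = 2.45e-10, 5.48e-11 and 3.17e-10). In 3D it had 342, 329 and 354 CPM in dSAP, 509, 630.5 and 644 CPM in dSRF, 344, 346 and 339 CPM in WT and 549, 556 and 516 CPM in control. The 3D dSRF libraries lay on both sides of control. In 3D the log2 fold change was -0.66 ± 0.07 in dSAP and -0.66 ± 0.07 in WT (adjusted p = 3.14e-07 and 1.99e-07), and in dSRF it was 0.14 ± 0.07 (adjusted p = 0.0785), or 0.24 without replicate 1 (adjusted p = 8.34e-05).

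GAA, the acid alpha-glucosidase that degrades glycogen, CTSA, a carboxypeptidase that also protects beta-galactosidase and neuraminidase, and GUSB, beta-glucuronidase, were called lower in all 6 comparisons. GAA had 78.0, 74.0 and 81.1 CPM in 3D dSAP, 57.2, 61.1 and 59.9 CPM in 3D dSRF, 69.7, 68.2 and 69.4 CPM in 3D WT and 108, 105 and 98.7 CPM in 3D control, and in 2D 30.4, 36.2 and 36.3 CPM in dSAP, 41.0, 42.0 and 40.8 CPM in dSRF, 43.7, 43.8 and 44.7 CPM in WT and 70.5, 57.8 and 63.5 CPM in control. The groups did not overlap in either culture. Its log2 fold change was -0.42 ± 0.07, -0.81 ± 0.07 and -0.59 ± 0.07 in 3D dSAP, dSRF and WT (adjusted p = 6.64e-05, 2.26e-09 and 7.15e-07), and -0.90 ± 0.07, -0.63 ± 0.07 and -0.54 ± 0.07 in 2D (adjusted p = 4.9e-09, 1.2e-07 and 2.94e-06). Without replicate 1 that of GAA in 3D dSRF was -0.78, that of CTSA -0.52, that of GUSB -0.73 and that of HEXA -0.26. With all libraries, that of CTSA lay between -0.54 (3D WT) and -0.32 (2D dSRF), and that of GUSB between -0.69 (3D dSRF) and -0.35 (3D WT). HEXA, the alpha subunit of hexosaminidase A, was lower in all 3 lines in 3D (-0.35, -0.16 and -0.48 in dSAP, dSRF and WT), and in 2D lower in dSAP (-0.53) and WT (-0.21) but higher in dSRF (0.21). TPP1, a tripeptidyl peptidase, was lower in dSAP and WT in both cultures. It had 229, 225 and 206 CPM in 3D dSAP, 267, 377 and 365 CPM in 3D dSRF, 199, 188 and 194 CPM in 3D WT and 329.9, 306 and 303 CPM in 3D control, and its log2 fold change was -0.51 ± 0.10 in dSAP and -0.69 ± 0.10 in WT (adjusted p = 0.000385 and 9.72e-06). In 3D dSRF it was 0.11 ± 0.09 (adjusted p = 0.336), or 0.25 without replicate 1 (adjusted p = 0.00111). In 2D it was lower in dSAP at -0.82 ± 0.10 and WT at -0.42 ± 0.10 and higher in dSRF at 0.63 ± 0.10.

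ASAH1, the acid ceramidase that cleaves ceramide to sphingosine, showed the largest rise of any member in the dSRF line in 2D. It had 43.8, 49.4 and 51.2 CPM in 2D dSAP, 352, 366 and 354 CPM in 2D dSRF, 85.8, 89.3 and 87.5 CPM in 2D WT and 72.2, 64.7 and 64.4 CPM in 2D control. In 3D it had 95.5, 105 and 98.5 CPM in dSAP, 322, 490.4 and 507 CPM in dSRF, 118, 122 and 114 CPM in WT and 162, 149 and 141 CPM in control. Every dSRF library, replicate 1 of 3D included, lay above every library of the other lines. For dSRF over control the log2 fold change was 1.55 ± 0.11 in 3D (1.73 without replicate 1) and 2.41 ± 0.12 in 2D (adjusted p = 4.11e-10 and 1.49e-12, edgeR). In the other lines it was lower in 3D, at -0.59 ± 0.11 in dSAP and -0.35 ± 0.11 in WT (adjusted p = 0.000454 and 0.0206), and in 2D it was lower in dSAP at -0.48 ± 0.12 and higher in WT at 0.38 ± 0.12 (adjusted p = 0.00351 and 0.0118).

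GLB1, the beta-galactosidase that releases galactose from gangliosides and is read in the senescence stain, and LIPA, the acid lipase of cholesteryl esters and triglycerides, were also higher in dSRF. GLB1 had 193, 231 and 233 CPM in 3D dSRF against 102, 102 and 102 CPM in 3D control, and 219, 224 and 213 CPM in 2D dSRF against 91.2, 82.8 and 87.8 CPM in 2D control. No library overlapped, and the log2 fold change was 1.10 ± 0.06 in 3D (1.18 without replicate 1) and 1.33 ± 0.06 in 2D (adjusted p = 1.29e-11 and 1.37e-12). In dSAP and WT it was called in neither culture, with log2 fold changes from -0.13 in 3D WT to 0.12 in 2D WT. LIPA had 218, 201 and 206 CPM in 3D dSRF against 97.7, 94.8 and 84.3 CPM in 3D control, a log2 fold change of 1.18 ± 0.06, or 1.14 without replicate 1 (adjusted p = 1.05e-12), and in 2D it was 0.82 ± 0.06 (adjusted p = 2.51e-10). CTSL, cathepsin L, was higher in dSRF in both cultures (0.35 in 3D, 0.31 without replicate 1, and 0.65 in 2D). CTSZ, cathepsin Z, was lower there (-0.37 in 3D, -0.36 without replicate 1, and -0.82 in 2D). These directions were not all particular to dSRF. In 2D WT, CTSL and LIPA were also called higher and CTSZ lower. In 3D WT, CTSZ and CTSL were called lower. In dSAP, CTSL, CTSZ and LIPA were called in neither culture. GLA, alpha-galactosidase A, was higher in all 3 lines in 2D, from 0.27 in dSAP to 0.60 in dSRF, and called in none of them in 3D. PSAP, the saposin precursor that activates sphingolipid hydrolases, was called in dSRF (0.46 in 3D, 0.57 without replicate 1, and 0.27 in 2D) and not in dSAP or WT.

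Summed per length, the 13 hydrolases had 2895 ± 38.5 TPM in 3D dSAP, 3748 ± 622 TPM in 3D dSRF, 2402 ± 14.5 TPM in 3D WT and 4864 ± 269.7 TPM in 3D control (SD, n = 3). In 2D the sums were 2062 ± 122, 2873 ± 2.34, 2069 ± 32.7 and 3466 ± 136 TPM in the same order of lines. The sum was under that of every control library in each line and in both cultures. In 3D dSRF it was 3030 TPM in the lowest library and 4112 TPM in the highest. Abundant genes weigh most in the sum, and in dSRF the hydrolases did not share 1 direction. Of the 13, 7 were called higher and 6 lower in 2D dSRF (34.5% and 31.5% of all genes). In 3D dSRF 4 were higher and 6 lower (35.1% and 31.3%), or 6 and 6 without replicate 1 (37.2% and 35.6%). CTSD alone had 1092 ± 31.2 TPM in 3D dSAP, 1037 ± 304 TPM in 3D dSRF and 782 ± 8.3 TPM in 3D WT, against 2604 ± 204 TPM in 3D control.

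**Figure D4:**
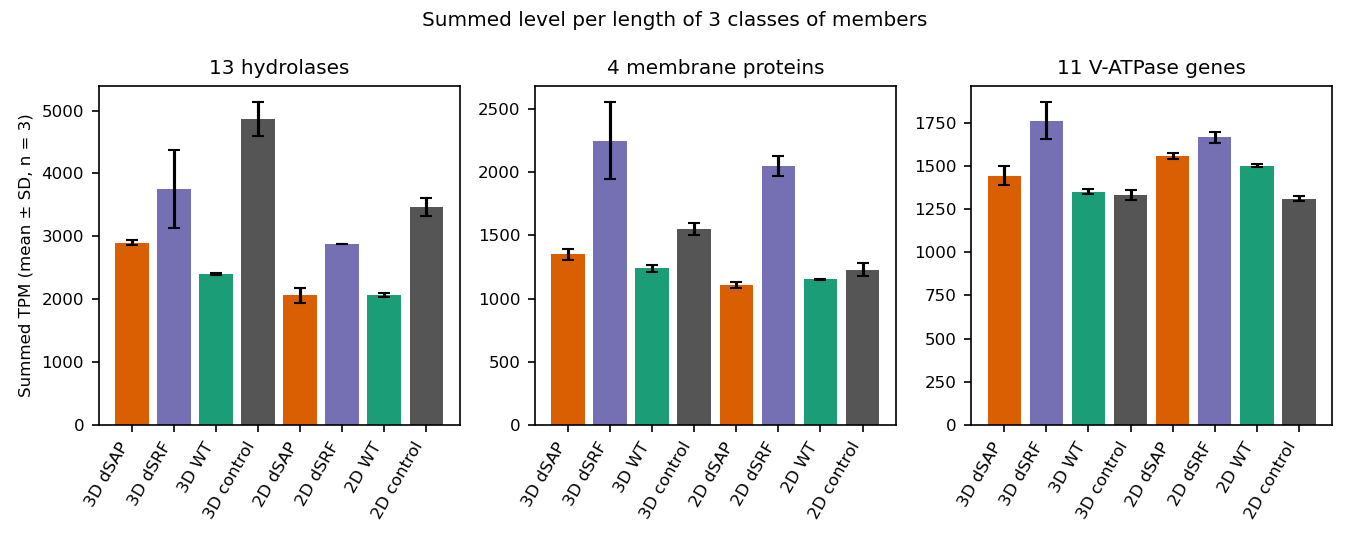
Bars give the mean summed TPM of 3 classes of members in each group and whiskers the SD over 3 libraries. The hydrolase sum is highest in 3D control, at 4864 TPM, and the membrane protein and V-ATPase sums are highest in 3D dSRF, at 2249 and 1763 TPM.

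Among membrane proteins, LAMP1, a main glycoprotein of the lysosomal membrane, was called lower in all 6 comparisons. It had 276, 282 and 269 CPM in 3D dSAP, 277, 263 and 262 CPM in 3D dSRF, 293, 288 and 284 CPM in 3D WT and 404, 415 and 376 CPM in 3D control, with no overlap between lines and control. The log2 fold change was -0.53 ± 0.04, -0.58 ± 0.04 and -0.47 ± 0.04 in 3D dSAP, dSRF and WT, and -0.35 ± 0.04, -0.16 ± 0.04 and -0.18 ± 0.04 in 2D (adjusted p = 3.25e-06, 0.00287 and 0.00189 in 2D), and in 3D dSRF it was -0.61 without replicate 1. LAMP2, its relative with a role in chaperone-mediated autophagy, was lower in 3D dSAP (-0.28), 3D WT (-0.35) and 2D dSAP (-0.15) and higher in 2D dSRF (0.12). CD63, a tetraspanin of late endosomes and exosomes, had 369, 425 and 489.9 CPM in 3D dSRF against 235, 239 and 218 CPM in 3D control, and 414, 460.2 and 406 CPM in 2D dSRF against 208, 195 and 205 CPM in 2D control. The dSRF libraries lay above all others, with a log2 fold change of 0.89 ± 0.07 in 3D (0.99 without replicate 1) and 1.07 ± 0.07 in 2D (adjusted p = 1.72e-09 and 1.56e-10). SCARB2, the receptor that carries glucocerebrosidase to lysosomes, was higher in dSRF at 0.62 ± 0.06 in 3D (0.72 without replicate 1) and 0.52 ± 0.06 in 2D.

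Of the cholesterol exporters, NPC2, the soluble carrier, and NPC1, its partner in the membrane, went in opposite directions in dSAP and WT. NPC2 had 127, 126 and 123 CPM in 3D dSAP, 223, 188 and 199 CPM in 3D dSRF, 122, 118 and 117 CPM in 3D WT and 193, 187 and 179 CPM in 3D control. Its log2 fold change was -0.57 ± 0.05 in dSAP and -0.65 ± 0.05 in WT in 3D, and -0.54 ± 0.05 and -0.51 ± 0.05 in 2D (adjusted p = 2.24e-07 in 2D WT). NPC1 was higher, at 0.30 ± 0.07 and 0.27 ± 0.07 in 3D dSAP and WT and at 0.42 ± 0.07 and 0.41 ± 0.07 in 2D, all called. In dSRF, NPC1 was called in 3D (0.30, or 0.19 without replicate 1) and not in 2D (-0.08), and NPC2 was called in 3D (0.12, or 0.05 and no longer called without replicate 1) and not in 2D (-0.08).

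ATP13A2, a transporter that moves polyamines out of the lysosome, showed the second largest rise of the members over control in dSRF in each culture, after ATP6V0A4 in 3D and ASAH1 in 2D. Without replicate 1 it was the largest in 3D, at 2.00 against 1.96 for ATP6V0A4. It had 80.6, 81.7 and 80.1 CPM in 3D dSAP, 255, 253 and 251 CPM in 3D dSRF, 108, 95.4 and 101 CPM in 3D WT and 60.4, 66.2 and 62.7 CPM in 3D control. In 2D it had 88.2, 99.5 and 94.8 CPM in dSAP, 303, 291 and 305 CPM in dSRF, 127, 126 and 126 CPM in WT and 101, 103 and 98.0 CPM in control. The 3 libraries of 3D dSRF, replicate 1 included, lay close together, and all 3 lines lay above control in 3D. Its log2 fold change was 0.36 ± 0.05, 2.00 ± 0.05 and 0.69 ± 0.05 in 3D dSAP, dSRF and WT (adjusted p = 1.12e-05, 5.03e-17 and 6.53e-10). In 2D it was 1.57 ± 0.05 in dSRF and 0.33 ± 0.05 in WT (adjusted p = 1.97e-15 and 1.37e-05), and in dSAP it was -0.10 ± 0.05 (adjusted p = 0.137). MCOLN1, the lysosomal calcium channel, had 83.0, 51.5 and 49.3 CPM in 3D dSRF against 32.5, 32.8 and 33.8 CPM in 3D control, and 51.5, 49.1 and 53.6 CPM in 2D dSRF against 25.4, 25.9 and 23.5 CPM in 2D control. Replicate 1 held the highest level in 3D, and the log2 fold change was 0.89 ± 0.13 with it and 0.61 without it (adjusted p = 3.43e-06 and 4.06e-10), against 1.04 ± 0.13 in 2D (adjusted p = 6.61e-07). MCOLN1 was called in neither dSAP nor WT.

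Most V-ATPase genes were modestly higher in the lines in 2D. Of the 11, 7 were called higher in 2D dSAP, 7 in 2D dSRF and 8 in 2D WT, against 5, 8 and 5 in the same lines in 3D. The shares of all genes called higher, given above, were 17.5%, 34.5% and 20.1% in these lines in 2D and 16.5%, 35.1% and 18.0% in 3D. Leaving out replicate 1 of 3D dSRF, the counts of the 11 were 8, 7 and 9 in 2D and 7, 8 and 7 in 3D. In that fit 23.8%, 37.3% and 25.3% of all genes were called higher in 2D and 23.3%, 37.2% and 23.8% in 3D. In 2D, 5 of the 6 V1 subunits were called higher in each line, with a median log2 fold change over the 6 of 0.32 in dSAP, 0.46 in dSRF and 0.38 in WT. In 3D the V1 counts were 2 in dSAP, 5 in dSRF and 3 in WT, with medians of 0.12, 0.60 and 0.18. In the fit leaving out that library the V1 counts in 3D were 4 in dSAP, 5 in dSRF, with 1 lower, and 5 in WT. ATP6V1B2, the ubiquitous B subunit of the ATP-splitting ring, had 128, 128 and 121 CPM in 2D dSAP, 134, 141 and 139.5 CPM in 2D dSRF, 136, 138 and 134 CPM in 2D WT and 98.5, 98.5 and 97.4 CPM in 2D control. The line libraries all lay above the control libraries, with log2 fold changes of 0.36 ± 0.04, 0.49 ± 0.04 and 0.47 ± 0.04 (adjusted p = 1.68e-07, 3.37e-10 and 1.62e-09). ATP6V1A, its catalytic partner in the ring, did not follow: it was lower in 2D dSRF (-0.34), higher in 2D WT (0.34) and called in no 3D line, though without replicate 1 it was lower in 3D dSRF at -0.30. ATP6V1D of the rotor and ATP6V1H, the regulatory subunit, were called higher in all 6 comparisons. Their log2 fold changes ran from 0.34 to 0.45 for ATP6V1D and from 0.19 to 0.50 in 3D dSRF (0.43 without replicate 1) for ATP6V1H. ATP6V1E1, of the peripheral stalk, and ATP6V1C1, the subunit C, were higher in dSRF in both cultures, at 0.78 and 0.70 in 3D (0.67 and 0.55 without replicate 1) and 0.66 and 0.46 in 2D. In 2D, ATP6V1E1 was also called higher in dSAP (0.30) and WT (0.48), and ATP6V1C1 in dSAP (0.23).

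In the V0 part, ATP6V0A1, one isoform of the large membrane subunit a, was higher in every line. It had 74.8, 78.9 and 69.6 CPM in 3D dSAP, 103, 122 and 115 CPM in 3D dSRF, 68.0, 60.4 and 62.4 CPM in 3D WT and 43.6, 43.7 and 46.7 CPM in 3D control. The log2 fold change was 0.74 ± 0.06, 1.34 ± 0.06 and 0.51 ± 0.06 in 3D dSAP, dSRF and WT (adjusted p = 3.28e-08, 6.92e-13 and 2.82e-06), and 0.65 ± 0.06, 0.71 ± 0.06 and 0.58 ± 0.06 in 2D (adjusted p = 1.6e-07, 7.72e-09 and 4.35e-07). In 3D dSRF it was 1.40 without replicate 1. ATP6V0A4, the isoform of subunit a known from kidney intercalated cells, was higher than control in the lines in 3D only. It had 17.6, 19.7 and 18.8 CPM in 3D dSAP, 46.6, 39.8 and 41.1 CPM in 3D dSRF, 18.8, 16.6 and 16.1 CPM in 3D WT and 9.63, 11.2 and 10.3 CPM in 3D control. In 2D it had 37.8, 39.3 and 36.3 CPM in dSAP, 37.0, 38.4 and 37.3 CPM in dSRF, 29.7, 27.8 and 30.6 CPM in WT and 40.7, 38.4 and 39.4 CPM in control. Control was lowest in 3D, and the 3D dSRF libraries lay near those of 2D dSRF, 2D dSAP and 2D control. The log2 fold change was 0.85 ± 0.08 in 3D dSAP, 2.03 ± 0.08 in 3D dSRF (1.96 without replicate 1) and 0.73 ± 0.08 in 3D WT (adjusted p = 5.73e-08, 1.89e-14 and 2.71e-07), while in 2D it was called only in WT, at -0.43 ± 0.07 (adjusted p = 7.67e-05). ATP6V0D1, the subunit d that joins V0 to V1, was higher in dSRF at 0.68 in 3D (0.67 without replicate 1) and 0.79 in 2D, and was also called higher in dSAP in 3D (0.23) and 2D (0.35) and in 2D WT (0.25). ATP6AP1, an accessory subunit, was lower in dSRF in both cultures (-0.27 in 3D, -0.31 without replicate 1, and -0.40 in 2D) and in 3D WT (-0.18), and ATP6V0E1 was called only in 2D WT (0.22). Summed TPM of the 11 V-ATPase genes was 1443 ± 54.5 in 3D dSAP, 1763 ± 107 in 3D dSRF, 1352 ± 11.9 in 3D WT and 1331 ± 28.7 in 3D control, and 1558 ± 16.9, 1665 ± 33.2, 1502 ± 9.26 and 1311 ± 15.2 in the same lines in 2D (SD, n = 3).

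SQSTM1, a receptor that links ubiquitinated cargo to autophagosomes, was lower in dSAP and WT in 3D. It had 506, 554 and 491 CPM in 3D dSAP, 1085, 671 and 630.0 CPM in 3D dSRF, 453, 440.0 and 433 CPM in 3D WT and 856, 818 and 855 CPM in 3D control. The dSAP and WT libraries lay below all control libraries, and the dSRF libraries lay on both sides of them. The log2 fold change was -0.70 ± 0.13 in dSAP and -0.93 ± 0.13 in WT (adjusted p = 0.00025 and 8.49e-06), and in dSRF -0.08 ± 0.13 (adjusted p = 0.576), or -0.38 without replicate 1 (adjusted p = 2.47e-07). In 2D it was called in no line.

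The mutants were then set against WT in the same culture, a comparison of lines that all overexpress MRTF-A, although at different MRTFA levels (8765 to 9628 CPM in 2D dSAP, 3170 to 3361 CPM in 2D dSRF and 4517 to 4878 CPM in 2D WT). Fewer members were called between dSAP and WT than between dSRF and WT, and in 2D dSAP 7 of the 13 hydrolases were lower than in WT. dSRF had higher ASAH1, ATP13A2, GLB1, CD63 and TPP1 than WT in both cultures. In 3D, 7 of 37 members were called in dSAP over WT (4 higher, 3 lower), where 12.1% of all genes were called (5.45% higher, 6.63% lower), and 14 in a fit without replicate 1 of 3D dSRF, where 27.2% of all genes were called. In 2D, 12 were called (1 higher, 11 lower), where 12.8% of all genes were called (5.09% higher, 7.71% lower). Without that library it was 18 members and 27.7% of all genes. In dSRF over WT, 28 were called in 3D (24 higher, 4 lower; 65.9% of all genes, 34.2% higher and 31.6% lower). The count was 34 without replicate 1, where 72.9% of all genes were called. In 2D there were 25 (19 higher, 6 lower; 64.0% of all genes, 33.6% higher and 30.4% lower). The share of members called in dSRF over WT was 75.7% in 3D and 67.6% in 2D, close to the background in 2D.

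In 2D, dSAP had lower ASAH1 than WT at -0.86 ± 0.12, ATP13A2 at -0.43 ± 0.05, TPP1 at -0.40 ± 0.10 and LIPA at -0.38 ± 0.06, all on the log2 scale (adjusted p = 4.81e-05, 5.95e-06, 0.00897 and 0.000134). ATP6V0A4 was the 1 member called higher, at 0.36 ± 0.07 (adjusted p = 0.00173). In 3D, dSAP had higher CTSD (0.38 ± 0.12), ATP6V0A1 (0.23 ± 0.06), CTSZ (0.18 ± 0.05) and ATP6V0D1 (0.17 ± 0.04) and lower ATP13A2 (-0.33 ± 0.05), ATP6V1B2 (-0.19 ± 0.03) and TFE3 (-0.17 ± 0.04) than WT, with adjusted p from 7.58e-05 for ATP13A2 to 0.0465 for CTSD.

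In dSRF over WT, ASAH1 had a log2 fold change of 1.90 ± 0.11 in 3D (2.08 without replicate 1) and 2.03 ± 0.12 in 2D (adjusted p = 2.64e-11 and 1.62e-11). That of ATP13A2 was 1.32 ± 0.05 in 3D and 1.24 ± 0.05 in 2D, that of GLB1 1.24 ± 0.06 and 1.21 ± 0.06, and that of TPP1 0.80 ± 0.10 and 1.04 ± 0.10; without replicate 1 the 3D values were 1.31, 1.31 and 0.93. ATP6V0A4 was at 1.31 ± 0.07 in 3D (1.23 without replicate 1; adjusted p = 7.03e-12) and 0.35 ± 0.07 in 2D. TFEB was called higher in dSRF than in WT, at 1.28 ± 0.34 in 3D (1.73 without replicate 1) and 1.02 ± 0.35 in 2D (adjusted p = 0.0028 and 0.0168, edgeR). In 3D its libraries did not all go that way: replicate 1 of dSRF, at 9.88 CPM, lay below the WT libraries at 15.4, 14.9 and 15.2 CPM. MITF was lower in 2D, at -0.99 ± 0.14 (adjusted p = 2.67e-06), with ATP6V1A at -0.69 ± 0.10, CTSZ at -0.63 ± 0.05 and NPC1 at -0.48 ± 0.07. In 3D, with all libraries, the called falls were GUSB at -0.34 ± 0.06, GAA at -0.22 ± 0.07, CTSZ at -0.15 ± 0.05 and LAMP1 at -0.11 ± 0.04 (adjusted p = 4.16e-05, 0.00708, 0.013 and 0.0297). Leaving out replicate 1, 9 members were called lower, where 36.3% of all genes were. They were MITF at -0.40, GUSB at -0.39, ATP6V1A at -0.38, GAA at -0.20, LAMP1 at -0.14, CTSZ at -0.14, ATP6V1D at -0.19, ATP6V0E1 at -0.16 and ATP6AP1 at -0.14.

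Growth on matrigel was compared with growth on plates in each line. In control, 9 of the 13 hydrolases and SQSTM1 were higher in 3D, and CTSB, MITF, ATP13A2 and ATP6V0A4 were lower. Of all 14986 genes tested, 3446 were called higher in 3D control than in 2D control and 3651 lower. In the dSAP and WT lines most V-ATPase genes were lower in 3D, and in dSRF fewer members were called between cultures than in the other lines. The members called in 3D over 2D numbered 29 of 37 in dSAP (13 higher, 16 lower; 47.8% of all genes) and 15 in dSRF (13 higher, 2 lower; 17.0% of all genes, 7.19% higher and 9.84% lower). In WT there were 29 (9 higher, 20 lower; 50%) and in control 27 (15 higher, 12 lower; 47.4%). Without replicate 1 of 3D dSRF the dSRF count was 23 (15 higher, 8 lower), where 48.2% of all genes were called (19.8% higher, 28.4% lower). In that same fit the counts were 33 in dSAP, 31 in WT and 31 in control, where 59.3%, 60.8% and 58.6% of all genes were called. With only the 3D dSRF and 2D dSRF libraries in the edgeR fit, none of 14117 genes was called, and 1848 had an unadjusted p under 0.05. DESeq2 on all libraries called 17 members and 18.7% of all genes. The fit of all libraries shares 1 estimate of the spread among the groups. Of the 11 V-ATPase genes, 8 were called lower in dSAP, 0 in dSRF, 10 in WT and 4 in control, where 23.5%, 9.84%, 25.7% and 24.4% of all genes were called lower in these lines. Leaving out that library, these counts were 9, 5, 10 and 7, where 29.3%, 28.4%, 30.9% and 29.9% of all genes were called lower.

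Summed TPM of the 13 mitochondrial genes was higher in 3D than in 2D in dSAP (34326 to 35681 against 16101 to 19660), WT (29953 to 37266 against 14899 to 22277) and control (24482 to 35780 against 11007 to 23642), and overlapped in dSRF (12531 to 22750 against 14667 to 26567); its part in these results was not tested.

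In control, SQSTM1 had 856, 818 and 855 CPM in 3D against 358, 328 and 328 CPM in 2D, a log2 fold change of 1.32 ± 0.13 (adjusted p = 8.81e-08). CTSD was higher at 1.25 ± 0.12, ASAH1 at 1.16 ± 0.11 and TPP1 at 0.91 ± 0.10 (adjusted p = 8.7e-08, 1.04e-07 and 2.39e-07). For these 4 genes no 3D control library overlapped a 2D control library. In the other direction ATP6V0A4 was at -1.93 ± 0.08, CTSB at -1.31 ± 0.07, MITF at -0.97 ± 0.14 and ATP13A2 at -0.67 ± 0.05 (adjusted p = 4.89e-13, 1.61e-11, 1.1e-05 and 1.35e-09). TFEB was at 0.82 ± 0.35 (adjusted p = 0.0579, and 6.46e-09 in the fit without replicate 1 of 3D dSRF), and TFE3 was lower at -0.35 ± 0.04.

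In dSAP, CTSD was at 1.36 ± 0.12, TPP1 at 1.22 ± 0.10, GAA at 1.18 ± 0.07 and ASAH1 at 1.05 ± 0.12, with MITF at -1.11 ± 0.13, ATP6V0A4 at -1.02 ± 0.07, CTSB at -0.88 ± 0.07 and CTSZ at -0.47 ± 0.05. In WT, CTSD was at 0.89 ± 0.12, GAA at 0.65 ± 0.07, TPP1 at 0.64 ± 0.10 and GLA at 0.53 ± 0.08, with MITF at -1.004 ± 0.13, CTSB at -0.95 ± 0.07, ATP6V0A4 at -0.77 ± 0.07 and CTSZ at -0.52 ± 0.05. All of these 16 values had an adjusted p under 0.05. In dSRF the called rises were led by SQSTM1 at 1.01 ± 0.13 (0.72 without replicate 1), CTSD at 0.85 ± 0.12 (1.04). They went on with GAA at 0.52 ± 0.07 (0.55) and CTSA at 0.45 ± 0.05 (0.44). With all libraries the only called falls were GUSB at -0.27 ± 0.06 (-0.31) and ATP13A2 at -0.24 ± 0.05 (-0.25). CTSB at -0.10, MITF at -0.11 and ATP6V0A4 at 0.18 were not called in dSRF, and MITF was at -0.41 and called without replicate 1 (adjusted p = 9.96e-05).

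**Figure D5:**
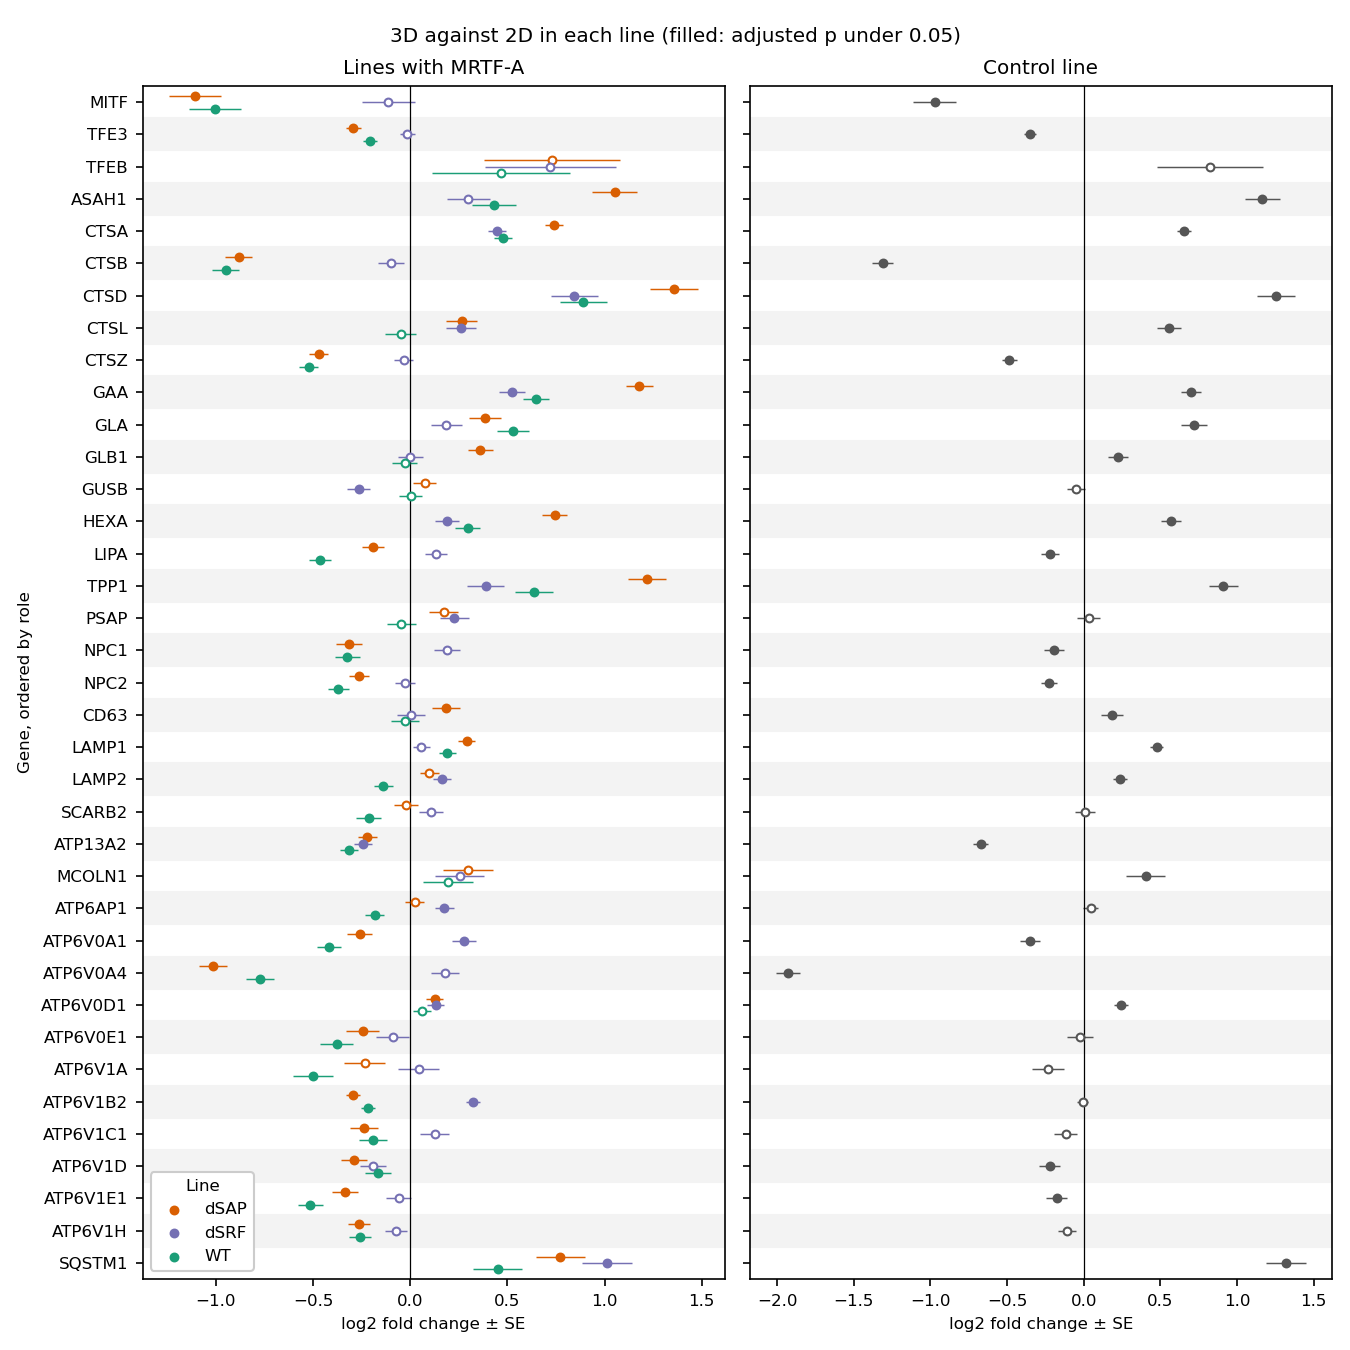
Log2 fold change of 3D over 2D with standard errors, for the 3 lines with MRTF-A on the left and the control line on the right; filled points have an adjusted p under 0.05. The panels differ in the range of the horizontal axis. ATP6V0A4 lies at -1.93 in control and at 0.18, not called, in dSRF.

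Whether a line's effect differed between cultures was tested as an interaction, the effect over control in 3D minus that in 2D. In dSAP it was called above 0 for 4 of 37 members and below 0 for 1 (2.34% of all genes were called, 1.13% above and 1.2% below). In dSRF the counts were 11 and 6 (29.2% of all genes, 14.7% above and 14.6% below), and in WT 3 and 8 (9.18%, 4.22% above and 4.96% below). Without replicate 1 of 3D dSRF the totals called were 10 in dSAP (11.4% of all genes), 24 in dSRF (43.8%) and 25 in WT (23.8%). ATP6V0A4, CTSB, ATP13A2 and ATP6V1B2 were called in all 3 lines, which share controls; the sign was the same in all 3 for the first 3, and ATP6V1B2 was at -0.29 in dSAP, 0.33 in dSRF and -0.21 in WT. ATP6V0A4 had the largest values, at 0.91 ± 0.10, 2.11 ± 0.10 and 1.15 ± 0.10 in dSAP, dSRF and WT (adjusted p = 6.35e-05, 3.65e-11 and 1.2e-06, edgeR). Without replicate 1 the dSRF value was 2.04. CTSB followed in dSRF at 1.21 ± 0.10 (1.31 without replicate 1), and was at 0.43 ± 0.10 in dSAP and 0.36 ± 0.10 in WT (adjusted p = 2.1e-08, 0.018 and 0.0196). SQSTM1, ASAH1, CTSL and LAMP2 had more negative effects in 3D than in 2D in WT, at -0.87 ± 0.18, -0.73 ± 0.16, -0.60 ± 0.11 and -0.38 ± 0.07 (adjusted p = 0.00374, 0.00604, 0.00167 and 0.00136).

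Other genes of the same pathways were read from 7 further lists, to be set against the shares of all genes called over control. In 3D these were 16.5% higher and 13.1% lower in dSAP and 18.0% and 17.0% in WT. In 2D they were 17.5% and 15.4% in dSAP, 34.5% and 31.5% in dSRF and 20.1% and 19.2% in WT. In 3D dSRF they were 35.1% higher and 31.3% lower (37.2% and 35.6% without replicate 1). In that fit without replicate 1, 3D dSRF had 9 further V-ATPase subunits called higher and 0 lower, 8 and 0 late endosome and HOPS genes, 17 and 12 hydrolases and activators and 18 and 4 membrane proteins. For the other lists it had 5 and 8 Rag, Ragulator and FLCN genes, 16 and 6 autophagy genes and 5 and 3 sorting genes. Of 10 further V-ATPase subunits tested, 1, 9 and 2 were called higher over control in 3D dSAP, dSRF and WT and 2, 0 and 2 lower. In 2D 1, 7 and 2 were higher and 0, 1 and 0 lower. Of 9 late endosome and HOPS genes, which tether and fuse late endosomes with lysosomes, 8 were higher in 3D dSRF and 7 in 2D dSRF, with none lower. VPS18, a shared subunit of the tethers, was at 1.43 in 3D (1.52 without replicate 1) and 1.74 in 2D. Of 36 further hydrolases and activators, 15 were higher and 11 lower in 3D dSRF, against 5 and 17 in 3D WT. LGMN, legumain, had 163 ± 0.631 CPM in 2D dSRF against 22.9 ± 2.35 CPM in 2D control (SD, n = 3), a log2 fold change of 2.83 (adjusted p = 1.03e-12), and NEU1, the neuraminidase that CTSA protects, was at 2.16 in 3D (2.12 without replicate 1) and 2.20 in 2D. SGSH, a heparan sulfatase, and SMPD1, acid sphingomyelinase, were lower in dSRF, at -1.70 and -1.42 in 3D (-2.35 and -1.61 without replicate 1) and -1.69 and -1.46 in 2D. In WT, ARSB, arylsulfatase B, was higher at 0.98 in 3D and 1.47 in 2D, and LGMN at 0.66 and 1.21.

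Of 26 further membrane proteins, 18 were higher and 2 lower in 3D dSRF and 17 and 3 in 2D dSRF, with CD68, a glycoprotein of late endosomes, at 1.68 in 3D and 2.32 in 2D and LAMP3 at 2.58 in 3D. Without replicate 1 of 3D dSRF, CD68 was at 1.78 and LAMP3 at 2.09. GPNMB, a glycoprotein that MiT/TFE factors are known to induce, had 20.8 ± 1.98 CPM in 3D control against 3.47 ± 0.302 CPM in 2D control (SD, n = 3), a log2 fold change of 2.57 (adjusted p = 6.08e-06). It was at 1.60 in 3D dSRF (2.01 without replicate 1) and 2.25 in 2D dSRF over control, and lower in 3D WT at -1.71. Of 15 Rag, Ragulator and FLCN genes, whose complexes control where TFEB sits, 5 were higher and 6 lower in 3D dSRF. In that comparison 35.1% of all genes were called higher and 31.3% lower. FNIP2 was higher in every line, at 0.83, 0.68 (0.56 without replicate 1) and 1.48 in 3D dSAP, dSRF and WT and 1.31, 0.91 and 1.87 in 2D. FLCN, its partner, was at 1.18 in 3D over 2D control. Of 26 autophagy genes, 4 were higher and 13 lower in 3D over 2D control. There 3446 of all 14986 genes were called higher and 3651 lower. In 3D dSRF over control, 16 of the 26 were higher and 6 lower. MAP1LC3A was higher in all 3 lines, from 1.51 in dSAP to 2.21 in dSRF (2.09 without replicate 1) in 3D and from 1.01 in dSAP to 1.21 in WT in 2D. Of 9 genes for mannose 6-phosphate sorting, 5 were higher and 3 lower in 3D dSRF. M6PR, a receptor that carries hydrolases to lysosomes, was at 0.96 in 3D dSRF (0.93 without replicate 1) and 1.35 in 2D dSRF, and GGA2, an adaptor, at -1.49 in 3D (-1.65 without replicate 1) and -1.25 in 2D.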

How the data were processed

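Total RNA was isolated with a column kit and made into stranded libraries after ribosomal RNA depletion, per the labels' protocols; the labels' molecule field names polyA RNA. Per the submitters' processing notes the reads were quantified with Salmon (version written as 11.3) on hg38 after FastQC; its settings are not given in the sources used here. For 37247 gene ids in 24 libraries the deposited tables contain expected counts (estimated counts, not whole numbers) and TPM, both made by the authors. Positions came from GENCODE 29 and symbols from a separate list of gene names, in which 34436 ids had a symbol.

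Groups came from the titles. Expected counts were rounded to whole numbers and fitted with edgeR 4.0.16 (R 4.3.3): genes with low counts were removed with filterByExpr, which left 14986, libraries were scaled by TMM, and the robust quasi-likelihood test was run in 1 model of 8 groups with 16 residual degrees of freedom, in 17 comparisons, with Benjamini-Hochberg adjustment over all 14986 genes and a threshold of 0.05. The common biological coefficient of variation was 13.1%. CPM used the TMM-scaled totals, and errors of log2 fold changes are standard errors. Total counts had a median of 18154380. Whether depth or the number of libraries limits the precision of genes at these counts was not tested.

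The members and all lists were chosen with earlier results of these data known. Genes named in each comparison were TFEB, TFE3 and MITF and up to 4 members with the largest rise and 4 with the largest fall whose libraries did not overlap, and other members were named after their values were seen; of the 137 genes of the 7 wider lists, 131 passed the filter and were tested. Alternatives were RLE scaling, no filter, DESeq2 1.42.0, limma 3.58.1 on log2(TPM + 1) or log2(TPM + 0.1) of the deposited TPM, a replicate block, a fit of the compared libraries only and leaving out each library. Replicate numbers did not pair the libraries: deviations of same-numbered libraries correlated at -0.131 to 0.108. The method was tested on simulated data with known changes. Motifs were searched with Python 3.11.15 in RefSeq windows.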

Additional observations from a re-analysis of the deposited data

Results flagged for a closer look

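The effects below differed between cultures by an interaction test, edgeR adjusted p under 0.05; each value is a line's log2 fold change over control in 3D minus that in 2D. The 3 lines share control libraries.

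In dSAP the values were 0.91 for ATP6V0A4, 0.48 for GAA, 0.45 for ATP13A2, 0.43 for CTSB and -0.29 for ATP6V1B2.

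In dSRF, V-ATPase values were 2.11 for ATP6V0A4, 0.63 for ATP6V0A1 and 0.33 for ATP6V1B2. Regulators had 0.86 for MITF and 0.33 for TFE3, and without replicate 1 of 3D dSRF the value of MITF was 0.56. Hydrolases had 1.21 for CTSB, 0.45 for CTSZ, 0.35 for LIPA, -0.20 for CTSA, -0.38 for HEXA, -0.52 for TPP1, -0.53 for GLA and -0.87 for ASAH1, and ASAH1 was at -0.68 and TPP1 at -0.38 without that library. LAMP1 had -0.42, NPC1 0.38, NPC2 0.20 and ATP13A2 0.43. NPC2 was at 0.13 and no longer called without that library (adjusted p = 0.0669).

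In WT the positive values were 1.15 for ATP6V0A4, 0.36 for CTSB and 0.36 for ATP13A2. The negative values were -0.87 for SQSTM1, -0.73 for ASAH1, -0.60 for CTSL, -0.38 for LAMP2, -0.34 for ATP6V1E1, -0.28 for LAMP1, -0.23 for ATP6AP1 and -0.21 for ATP6V1B2.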

How the results depend on the processing

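The number of members called moved past 1.5 times its value in the report in 5 comparisons. Each percentage is the share of all genes called in the same fit. The count and share of the report stand in brackets after the comparison. For 2D dSAP over 2D WT (12, 12.8%) it was 6 with limma on log2(TPM + 1) (12.4%) and 6 on log2(TPM + 0.1) (12.1%). It was 20 when only the libraries compared were fitted (31.8%). For 3D dSAP over 3D WT (7, 12.1%) it was 3 with no filter on low counts (5.28%) and 16 with only the libraries compared (33.4%). For 3D dSRF over 2D dSRF (15, 17.0%) it was 0 with only the libraries compared in edgeR. In that fit 0 of 14117 genes were called and 16 members had an unadjusted p under 0.05. DESeq2 on all libraries called 17 (18.7%). For the difference of effects between cultures in WT (11, 9.18%) it was 22 with only the libraries compared (24.5%). For that in dSAP (5, 2.34%) it was 3 on log2(TPM + 1) (1.33%) and 3 on log2(TPM + 0.1) (1.09%). It was 10 with only the libraries compared (9.88%). The cause was not tested.

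Leaving out each library in turn gave 20 to 25 called members for 3D dSAP, 27 to 34 for 3D dSRF and 21 to 31 for 3D WT over control, and 18 to 26, 29 to 33 and 24 to 31 in 2D. Over WT it gave 3 to 14 for dSAP and 27 to 34 for dSRF in 3D, and 7 to 18 and 23 to 27 in 2D. The shares of all genes were 7.78% to 27.2% and 60.5% to 72.9% in 3D, and 7.68% to 27.7% and 58.5% to 70.7% in 2D. For 3D over 2D it gave 26 to 33 in dSAP, 10 to 23 in dSRF, 26 to 31 in WT and 23 to 31 in control. There the shares were 40.6% to 59.3%, 10.5% to 48.2%, 42.5% to 60.8% and 39.3% to 58.6%. For the difference of effects it gave 4 to 10, 15 to 24 and 9 to 25 in dSAP, dSRF and WT. These had shares of 1.35% to 11.4%, 24.2% to 43.8% and 6.38% to 23.8%. The highest count came from leaving out replicate 1 of 3D dSRF in each of those 5 comparisons; the lowest came without 2D WT replicate 3 for 2D dSAP over 2D WT, without 3D dSAP replicate 2 for 3D dSAP over 3D WT and without 2D dSRF replicate 1 for 3D dSRF over 2D dSRF.

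TFE3 in 2D dSRF over 2D WT was at -0.02 and not called, and on log2(TPM + 1) and log2(TPM + 0.1) it was at 0.15 and 0.15. The TFEB difference of effects in dSRF was at -0.10 and not called, and ran from -0.48 without replicate 2 to 0.36 without replicate 1 of 3D dSRF. With a replicate block the counts were 26 for 2D WT over control, 24 for 2D dSRF over 2D WT, 6 for 3D dSAP over 3D WT, 13 for 3D dSRF over 2D dSRF and 10 for the WT difference of effects, and 1 of 167 named gene and comparison pairs was no longer called. Of those 167 pairs DESeq2 left the call of 164 unchanged and newly called 3. Each limma fit on TPM left 147 unchanged, with 18 no longer called, 1 newly called and 1 reversed in direction. The fit of only the libraries compared left 146 unchanged, with 12 no longer called and 9 newly called. With no filter, 6 were no longer called, and with RLE scaling 1. Over all fits that left out 1 library, 1252 results were unchanged, 28 no longer called, 15 newly called and 1 reversed.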
